A study of Mus musculus with 4 samples.

Results

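The sites described here were ATAC-seq peaks of hematopoietic stem cells (HSCs) whose summits lay in exons of protein-coding genes, away from annotated start sites. They numbered 506 of the 36600 autosomal peaks in the Med23-deficient (KO) list and were chosen by 3 measured criteria: a KO peak, at least 1 bp of overlap with a WT peak, and a KO summit more than 2.5 kb from any annotated start site. A total of 28978 KO peaks overlapped a WT peak and 13744 of these were distal, so the exonic sites made up 3.68% of the shared distal peaks. By the position of the KO summit, 212 lay in coding exons, 237 in 3′ untranslated regions (3′ UTRs), 4 in 5′ UTRs and 53 in exons of transcripts with no coding part.

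ATAC-seq uses a transposase to insert adapters into open chromatin, so a peak marks DNA that is free of tightly packed nucleosomes. Most regulatory DNA outside promoters lies in introns and between genes, but exons can also hold enhancers and factor binding sites, and then the same bases carry both a protein code and a regulatory sequence. A 3′ UTR does not code for protein and holds signals for mRNA stability, translation and 3′-end formation, and its DNA can be open as well.

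HSCs were sorted as LSK CD150+CD34-CD48- cells, per the labels, from bone marrow of adult C57BL/6 mice; the study's methods for this assay give the gate without CD34. WT mice carried the floxed Med23 alleles (Med23floxp/flowp) without cre, and KO mice carried Mx1-cre;Med23floxp/flowp. Mx1-cre is driven by an interferon-responsive promoter and was induced by the authors with poly(I:C), which deletes the gene in many blood and other cells and not in HSCs alone; Med23 is a subunit of the Mediator complex, which links activators to RNA polymerase II. The labels name 2 samples per genotype but 1 peak list for both, so every KO to WT comparison set 1 list beside 1 list with no spread between replicates and no test.

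Both lists held 1 peak at the Med23 gene, at its promoter, with a pileup of 64 reads in WT and 85 in KO, which does not check the deletion. Promoter peaks were present in each list at 4 of 7 stem cell markers (Kit, Tek, Hlf and Mecom, not Ly6a, Slamf1 or Procr) and at 1 of 8 genes of other lineages or cells outside the gate (Cd48). In sorted bulk cells, a weaker peak in each cell cannot be told apart from fewer cells with the peak. A summit pileup here is the number of overlapping reads at the summit, recovered from the deposited fold enrichment and −log10 p of each peak. The number of reads per library is unknown.

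The member nearest to the distance limit was in the Tmem231 3′ UTR at 2512 bp, with pileups of 19 in WT and 18 in KO, and the nearest shared exonic peak left out was in the Nfix 3′ UTR at 2497 bp, with 37 in WT and 47 in KO. Within 500 bp of the limit, 32 exonic peaks fell inside and 46 outside. The smallest overlap with a WT peak was 54 bp, in Jakmip2, and the nearest exonic KO peak without overlap, in the Evc 3′ UTR, lay 23 bp from a WT peak.

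Per annotated base, coding exons and 3′ UTRs away from annotated start sites held more peak summits than introns or intergenic DNA. Coding exons covered 0.904% of the distal autosomal bases and held 1.54% of the shared distal summits (exact binomial 95% interval 1.34 to 1.76%), a ratio of 1.71 (1.49 to 1.95). The 3′ UTRs covered 1.18% of the bases and held 1.72% of the summits (1.51 to 1.96%), a ratio of 1.47 (1.29 to 1.66). Exons of transcripts with no coding part had a ratio of 1.12 (0.842 to 1.47), whose interval held the intronic ratio. Introns had a ratio of 1.25 (1.23 to 1.27) and intergenic DNA 0.819 (0.804 to 0.835). In counts per length, that was 11.4 sites per Mb of coding exon, 9.75 per Mb of 3′ UTR, 7.47 per Mb of exon with no coding part, 8.31 per Mb of intron and 5.45 per Mb of intergenic DNA. These intervals cover counting error over peaks only. Whether reads could be placed equally well in each class of bases was not tested.

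Peaks called in 1 list alone lay in exons at a similar rate. The exonic share was 3.48% (3.01 to 3.99%) of 5607 distal peaks of the KO list alone and 3.24% (2.80 to 3.72%) of 5965 distal peaks of the WT list alone, against 3.68% (3.37 to 4.01%) of shared distal peaks. For coding exons the ratio to bases was 1.42 (1.11 to 1.79) for KO alone and 1.34 (1.05 to 1.68) for WT alone. The intervals of all 3 groups overlapped.

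**Figure D1:**
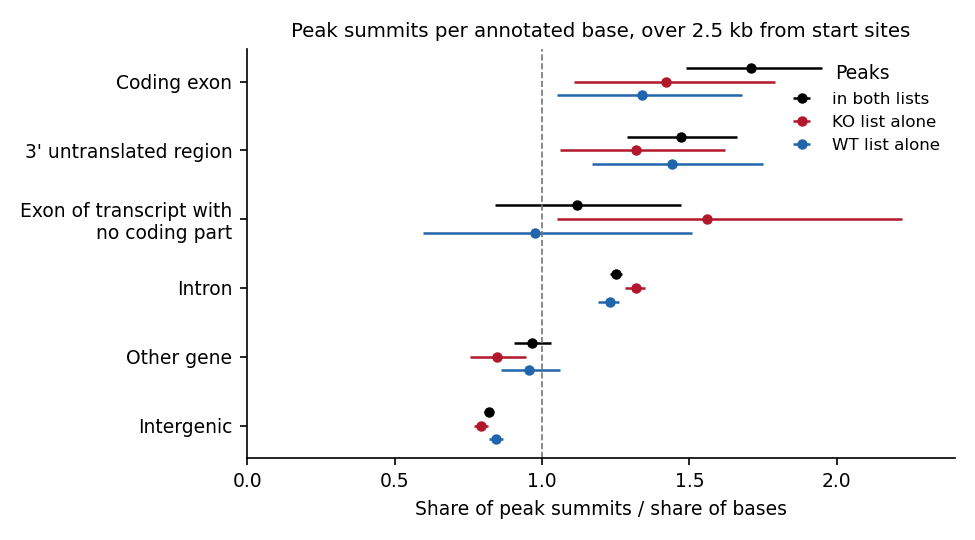
Share of distal peak summits in each annotation class divided by the class's share of distal autosomal bases, for shared peaks (black) and for peaks of the KO list (red) or WT list (blue) alone; bars are exact binomial 95% intervals and the dashed line marks a ratio of 1. Coding exons at 1.71 and 3′ UTRs at 1.47 sat above introns at 1.25 and intergenic DNA at 0.819 for shared peaks.

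The 506 sites fell in 497 genes, which was 2.39% of the 20780 autosomal protein-coding genes. The 9 genes with 2 sites included Notch3, a receptor of the Notch pathway, Chd9, a chromatin remodeler, and Cand2, a regulator of cullin ubiquitin ligases, and no gene held 3 or more. These 3 were picked for mention after their values were seen. Every autosome held members, from 13 on chromosome 14 to 43 on chromosome 7. These were 2.27% of 573 and 5.83% of 738 shared distal peaks, respectively. The median distance to the nearest start site was 7604 bp for coding sites and 8413 bp for 3′ UTR sites.

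The place of coding sites within their genes differed from that of coding bases at large. Most coding bases away from annotated start sites were in internal exons. In contrast, 96 of the 212 coding sites (45.3%, 38.5 to 52.2%) were in the last exon. The share was 23.5% (23.0 to 24.1%) of 19995 evenly spaced distal coding bases outside peaks. Long exons were also more frequent: 86 coding sites (40.6%, 33.9 to 47.5%) lay in an exon over 1000 bp, against 25.4% (24.8 to 26.0%) of those bases, and the median exon was 525 bp long against 198 bp. Distance from a start site did not separate them, with medians of 7604 bp for the sites and 8417 bp for the bases.

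Many coding sites reached beyond their exon. The median KO peak at a coding site was 590 bp wide and had 48.9% of its bases in coding exon, and 41 peaks (19.3%) lay wholly in it. For the 67 sites in exons of 200 bp or less the median share was 26.3%, so most of such a peak was intronic, while for the 86 sites in exons over 1000 bp it was 92.3%. At 3′ UTR sites the median peak was 546 bp wide, and 171 of 237 peaks (72.2%) lay wholly in the 3′ UTR. The exon belonged to every annotated coding transcript that spans the summit at 189 coding sites (89.2%) and at 208 3′ UTR sites (87.8%).

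The WT summit of the overlapping peak was close to the KO summit. The median distance was 49 bp at coding sites and 45 bp at 3′ UTR sites, and the WT summit lay in the same class of the same gene at 162 coding sites (76.4%, 70.1 to 82.0%) and 218 3′ UTR sites (92%, 87.8 to 95.1%). At 44 coding sites (20.8%) the WT summit was in no exon. The coding label was therefore less stable than the 3′ UTR label when the other list placed the summit.

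The 3′ UTR sites were less often close to the end of the transcript than other 3′ UTR bases. A total of 232 sites (97.9%) lay in the last exon, against 98.8% of evenly spaced 3′ UTR bases. The median distance to the end of the transcript was 1218 bp against 1110 bp, and 20.7% of sites (15.7 to 26.4%) lay within 500 bp of that end, against 27.2% of bases (26.6 to 27.9%).

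Coding sites were rich in GC and CpG. In the 200 bp around the summit the median GC content was 59.2% at coding sites, 51.0% at 3′ UTR sites, 49.5% at shared intronic sites, 49.0% at shared intergenic sites and 63.0% at shared peaks within 2.5 kb of a start site. Evenly spaced coding bases outside peaks had a median of 49.5% and 3′ UTR bases 43.0%, so the sites of both classes were above the bases of their own class. Windows of 500 bp with at least 50% GC and an observed to expected CpG ratio of at least 0.6, called CpG-island-like here, surrounded 80 coding sites (37.7%, 31.2 to 44.6%). The share was 2.23% (2.03 to 2.44%) of coding bases outside peaks, 2.95% (1.2 to 5.99%) of 3′ UTR sites, 1.07% (0.827 to 1.36%) of shared intronic sites and 62.4% (61.6 to 63.2%) of shared peaks near start sites. Coding sites thus stood between intronic sites and promoters in CpG content.

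**Figure D2:**
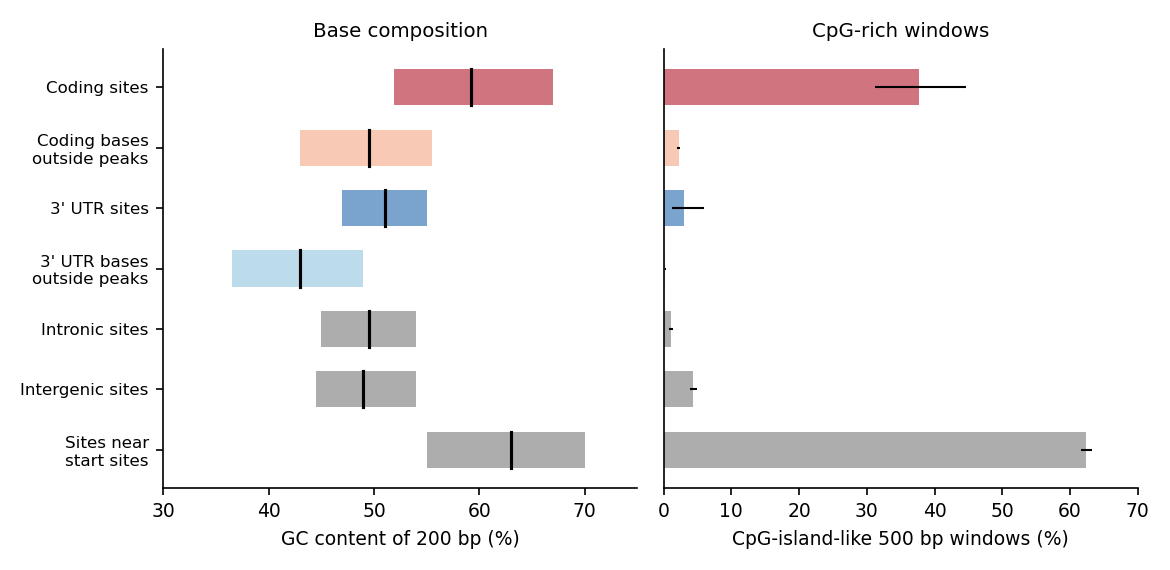
Left, GC content of 200 bp around the KO summit or around evenly spaced exon bases outside peaks, with boxes from the lower to the upper quartile and a line at the median. Right, the share of CpG-island-like 500 bp windows with exact binomial 95% intervals, which was 37.7% at coding sites and 2.95% at 3′ UTR sites.

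The CpG-island-like coding sites included Tal1, Prdm2, Zscan10, Prrt3 and A830031A19Rik, all named by other rules here, and, picked after their values were seen, Spib, Lhx2, Pomc, Maff and Wnt10b. Spib encodes an ETS factor of lymphoid cells and its site in exon 6 of 6 had pileups of 25 in WT and 27 in KO. The homeobox gene Lhx2 had 17 in WT and 21 in KO at exon 5 of 5, and the hormone precursor gene Pomc had 14 in each at exon 3 of 3. These values were close between the lists. The 80 CpG-island-like sites and the other 132 coding sites had the same median log2 KO to WT ratio of 0.17, with 95% intervals of 0.09 to 0.30 and 0.09 to 0.29.

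Short motifs of blood and general factors were counted on both strands of the 200 bp around each summit, and a match describes letters and not binding. The ETS motif was searched as AGGAAGT and the longer form preferred by PU.1, which holds the ETS motif, as GAGGAAGT. The letters for RUNX factors were TGTGGTT, those for the GATA family AGATAA and those for the AP-1 dimer TGANTCA. C/EBP factors were searched as TTGCNNAA, the E-box of E proteins and TAL1 was searched as CAGCTG, SP and KLF factors were searched as GGGCGG and the MYC family was searched as CACGTG. Core consensus sequences of CTCF and of interferon regulatory factors were also searched. CTCF is the factor that anchors chromatin loops. The following sequences, from the GRCm38 (mm10) reference, show the CTCF matches of coding sites closest to the KO summit, written 5′ to 3′ on the coding strand of the gene with the match in capitals.
Cdc14b, chr13:64205357-64205386 (minus): tgtagtgttGCCATCTGGTGGattgtgtgt
Dio2, chr12:90729837-90729866 (minus): gtgcagagcGCCCACTGGTGGtcaactttg
Itgb4, chr11:116004991-116005020 (plus): gcctgtccgCCAGCAGCGGGCgctctgacg
Synpo2l, chr14:20661153-20661182 (minus): ttcatgcagCCACTAGGGGGCaggagttac
Phldb2, chr16:45757043-45757072 (minus): gtgtaggttGCCCCCTGGTGGtcaatttgt
Zscan10, chr17:23610704-23610733 (plus): acttgctgcGCCACCTGCTGGttcacaccg
9330182L06Rik, chr5:9427749-9427778 (plus): tattaggctGCCCCCTTCTGGagagaagaa
Speg, chr1:75388650-75388679 (plus): ccagccgccGCCTCCTAGTGGtgcgggcaa

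The centers of these matches lay 9 bp (Cdc14b), 26 bp (Dio2), 37 bp (Itgb4 and Synpo2l), 41 bp (Phldb2), 43 bp (Zscan10), 49 bp (9330182L06Rik) and 65 bp (Speg) from the summit. All but the Phldb2 match lay wholly in coding sequence. The match was on the strand opposite to the gene at all but Itgb4 and Synpo2l. Its first base on the coding strand was at position 1 of a codon in Cdc14b and Synpo2l, at position 2 in Dio2, Itgb4 and Zscan10, and at position 3 in 9330182L06Rik and Speg, so no single reading frame was shared. The pileups of the 4 closest were alike in both lists: 13 in WT and 12 in KO at Cdc14b, a phosphatase gene, 21 and 20 at Dio2, the activating thyroid hormone deiodinase, 29 and 29 at Itgb4, an epithelial integrin chain, and 22 and 21 at Synpo2l. Zscan10, a zinc finger gene, had 21 in WT and 35 in KO, while 9330182L06Rik had 16 and 10.

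The CTCF motif was found at 10 coding sites (4.72%, 2.28 to 8.50%) and 19 3′ UTR sites (8.02%, 4.90 to 12.2%). The shares were 1.14% (0.998 to 1.30%) of coding bases and 1.10% (0.960 to 1.25%) of 3′ UTR bases outside peaks, and 4.63% of shared intronic, 7.52% of shared intergenic, 3.49% of shared promoter-proximal and 4.72% of all shared peaks. Both exonic intervals lay above the shares of exon bases and held the intergenic share, and that of coding sites also held the intronic share. The coding difference was not separate from counting error at like GC content: among coding windows with 50 to 70% GC the share was 2.84% (0.778 to 7.10%) at 141 sites, an interval that held the 1.60% of bases outside peaks. Keeping the 93 3′ UTR sites whose peaks reached a −log10 q of 10 in WT and in KO gave a share of 2.15% (0.262 to 7.55%), and this interval held the share of 3′ UTR bases. Matches in 3′ UTRs close to the summit are shown with the same conventions.
Fam131a, chr16:20702666-20702695 (plus): catcgaggaCCACAAGGGGGCaacccgggg
Rpl22, chr4:152333103-152333132 (plus): gtctagcctCCAGCAGAGGGCgagggagac
Eef2kmt, chr16:5244620-5244649 (minus): ggcttatgaCCACTAGGGGGCactcaaaag

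These 3 matches were centered 4 bp (Fam131a), 7 bp (Rpl22) and 9 bp (Eef2kmt) from the summit. The pileups were 10 in WT and 11 in KO at Fam131a, 14 and 19 at Rpl22, a ribosomal protein gene, and 16 and 17 at Eef2kmt. None of the 3 differed by 1.5-fold.

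The ETS motif, bound by factors such as PU.1, FLI1 and ERG in blood stem cells, was more frequent at exonic sites than in other exon sequence. It was found at 14.2% of coding sites (9.76 to 19.6%) and 20.3% of 3′ UTR sites (15.3 to 25.9%), against 5.17% (4.86 to 5.48%) and 4.63% (4.34 to 4.93%) of the bases of the same class outside peaks. Shared intronic sites had it at 24.6% (23.5 to 25.7%). The longer PU.1 motif was found at 8.02% of coding sites, 6.33% of 3′ UTR sites and 10.5% of intronic sites, against 1.59% of coding bases. Among coding windows with 50 to 70% GC the ETS share was 15.6% (10.0 to 22.7%) at 141 sites and 5.17% at 9705 bases outside peaks, so the difference was present at like GC content. It was not seen in every part of the coding class. ETS was at 20.5% (13.9 to 28.3%) of the 132 coding sites that were not CpG-island-like. At the 80 CpG-island-like coding sites the share was 3.75% (0.780 to 10.6%), an interval that held the 5.17% of coding bases.

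The RUNX motif was more frequent at 3′ UTR sites than at coding sites. RUNX factors are regulators of HSC formation, and their motif was at 3.30% of coding sites (1.34 to 6.68%), no more than the 3.57% of coding bases outside peaks, but at 12.2% of 3′ UTR sites (8.35 to 17.1%) against 4.49% of 3′ UTR bases and 14.8% of intronic sites. GATA motifs were at 5.19% of coding sites (2.62 to 9.09%) and 6.75% of 3′ UTR sites (3.91 to 10.7%), with overlapping intervals that both lay below the 12.8% of intronic sites. The 3′ UTR interval also lay below the 11.4% of 3′ UTR bases, and the coding interval held the 8.59% of coding bases. With GC content held to 50 to 70%, RUNX remained at 2.84% of coding sites (0.778 to 7.10%) and 12.4% of intronic sites (11.3 to 13.7%). GATA was then at 2.84% of coding sites (0.778 to 7.10%), 3.78% of coding bases and 9.02% of intronic sites. GC content was not held alike for 3′ UTR windows, where its median was 51.0% at sites and 43.0% at bases. Any of the ETS, RUNX or GATA motifs was found at 20.8% of coding, 35.4% of 3′ UTR and 43.5% of intronic sites. The coding interval of 15.5 to 26.8% held the 16.4% of coding bases outside peaks. The 3′ UTR interval of 29.4 to 41.9% lay above the 19.4% of 3′ UTR bases. With GC content held to 50 to 70%, the share was 19.9% of coding sites (13.6 to 27.4%) and 11.5% of coding bases.

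The SP and KLF motif, typical of CpG-rich promoters, was at 22.2% of coding sites (16.8 to 28.4%) and 11% of 3′ UTR sites (7.29 to 15.7%). It was at 4.60% of coding bases, 2.48% of 3′ UTR bases, 8.05% of intronic sites and 50.5% of peaks near start sites. The share was 38.8% (28.1 to 50.3%) of CpG-island-like coding sites and 12.1% (7.09 to 18.9%) of the other coding sites. AP-1 was at 6.13% of coding sites (3.31 to 10.3%) and 11.4% of 3′ UTR sites (7.64 to 16.1%), against 4.85% and 5.75% of the respective bases. C/EBP, a myeloid factor family, was at 5.66% and 11%, where both C/EBP intervals held the 8.07% of coding and 9.42% of 3′ UTR bases. The E-box was at 21.7% and 17.3%, and was also at 14.9% and 9.28% of the respective bases. The interferon motif was at 3.30% and 3.8%, and both intervals held the 2.63% and 2.92% of the respective bases. The MYC motif was at 5.19% (2.62 to 9.09%) and 6.75% (3.91 to 10.7%), against 3.25% and 2.69% of the respective bases.

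**Figure D3:**
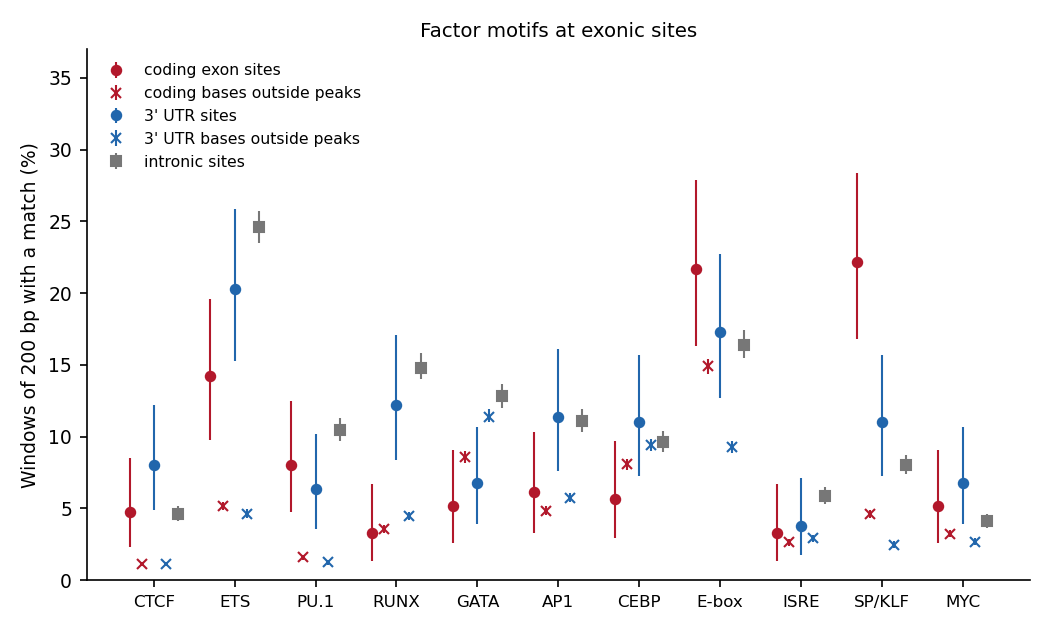
Share of 200 bp windows with a match to each of 11 motifs at coding sites (red circles), 3′ UTR sites (blue circles), evenly spaced exon bases outside peaks (crosses) and shared intronic sites (grey squares), with exact binomial 95% intervals. The ETS shares of both site classes lay above their exon bases, while RUNX was at 3.30% of coding sites and 12.2% of 3′ UTR sites.

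Exonic sites were of ordinary height for distal peaks. The median pileup at coding sites was 17 in WT and 18 in KO, at 3′ UTR sites 16 and 19, and at shared intronic sites 17 and 19, while peaks near start sites had 29 in each. The deposited fold enrichment had a median of 6.37 in WT and 7.06 in KO at coding sites and of 6.38 and 7.64 at 3′ UTR sites. The range at coding sites was 6 to 70 (WT) and 7 to 81 (KO), and at 3′ UTR sites 7 to 144 and 7 to 135.

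The strongest coding sites by KO fold enrichment were in Ncam2, Prdm2, Cytip, Abca13, Gtf3c1, Rtn4ip1, Mamdc2, Supt20, Utp14b and Spen. They were picked for high KO values, so the KO side is favored in this group. Ncam2, a neural cell adhesion molecule, had a pileup of 64 in WT and 75 in KO at chr16:81437249-81438009, where 18.9% of the peak was in exon 4 of 16. Prdm2, a histone methyltransferase, had 70 and 81 at chr4:143161593-143162599, with 12.6% of the peak in exon 6 of 10 and the WT summit in no exon. Both were high in either list, and their log2 ratios of 0.31 and 0.30 lay near the median of all shared peaks.

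The Spen and Utp14b sites lay wholly in long coding exons. Spen, a transcriptional corepressor, had 29 in WT and 38 in KO within its exon 11 of 8020 bp, and Utp14b, a ribosomal RNA processing factor, had 31 and 40 within its exon 3 of 7187 bp. Cytip, a regulator of cell adhesion in leukocytes, had 56 and 65, with 12.4% of the peak in exon 7 of 67 bp. Gtf3c1, the largest subunit of TFIIIC, had 45 and 69, and Supt20, a subunit of the SAGA coactivator, was the one of the 10 with the higher raw value in WT, 42 against 36.

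The PU.1 motif occurred at Ncam2 and Spen, and both matches lay in coding sequence. They are shown with the SP and KLF match at Tal1 and the ETS match at Il4ra, described below, on the coding strand of each gene.
Ncam2, chr16:81437704-81437733 (plus): tgtaccacaatGAGGAAGTcaccaccatcc
Spen, chr4:141477870-141477899 (minus): ggcctgagaaaGAGGAAGTgaggaaaaact
Tal1, chr4:115063301-115063330 (plus): cagcggcgcgggGGGCGGccctgccagtgg
Il4ra, chr7:125575930-125575959 (plus): cctctgccttcAGGAAGTgggcaggcttct

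The strongest 3′ UTR sites were in Lars2, P2ry14, Rnf180, Myo5a, Slc35b4, Tnfrsf11b, Enpep, Setd7, Bend4 and Usp6nl. Lars2, the mitochondrial leucyl-tRNA synthetase, had the highest fold enrichment of all members, with pileups of 144 in WT and 135 in KO at chr9:123461786-123462199. Its 200 bp window had 4 further copies in the reference with at least 90% identity over at least 75% of its length, and whether its reads came from these copies was not tested. Such copies were found for 5 coding and 11 3′ UTR sites, and Lars2 was the one among the sites named for height.

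P2ry14, a receptor for UDP-glucose found on hematopoietic progenitors, had 74 in WT and 98 in KO at chr3:59113786-59114723, with 92.6% of the peak in its 3′ UTR. Usp6nl, a regulator of endosomal Rab proteins, had 57 and 82, Tnfrsf11b, the decoy receptor osteoprotegerin, 48 and 71, and Slc35b4, a nucleotide sugar transporter, 49 and 70. Rnf180 and Bend4 were level, at 58 and 58 and at 69 and 70. Of the 10 sites, Lars2 was lower and Rnf180 equal in KO by raw pileup, and the other 8 were higher. These sites were also picked for high KO values, so this count favors the KO side. Among all 235 3′ UTR sites with 1 peak in each list, 73.6% had a log2 KO to WT ratio over background above 0. That share was 65.6% of all shared regions, whose median was 0.17 on this scale, and 69.4% of shared intronic sites.

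**Figure D4:**
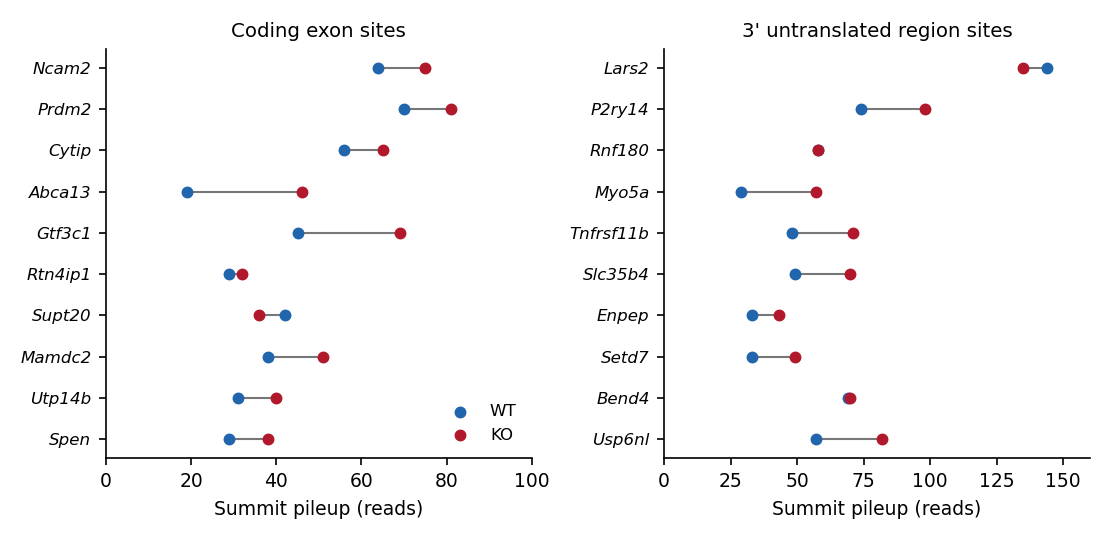
Summit pileup (overlapping reads) in the WT list (blue) and KO list (red) at the 10 coding and the 10 3′ UTR sites of highest KO fold enrichment, 1 value per list. Most pairs lay close together, and Abca13 (19 and 46) and Myo5a (29 and 57) were furthest apart in ratio.

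As a group, coding sites followed the genome-wide KO to WT ratio. Pileups over the genome-wide background of each list gave a median log2 KO to WT ratio of 0.17 over all 28119 shared autosomal regions with 1 peak in each list, and changes are given relative to that shift. The median was 0.17 (95% interval 0.09 to 0.26, SD 0.43, n = 209) at coding sites, 0.30 (0.21 to 0.37, SD 0.46, n = 235) at 3′ UTR sites, 0.23 (0.22 to 0.24) at shared intronic sites, 0.22 (0.20 to 0.23) at intergenic sites and 0.12 (0.10 to 0.13) at peaks near start sites. The 3′ UTR sites were 0.14 above the median of all shared regions on this scale and with raw pileups, but 0.05 above it by the ratio of deposited fold enrichments, where the interval of 0.24 to 0.35 held the overall median of 0.26. On all 3 scales the interval of 3′ UTR sites held the intronic median, which was 0.14 with raw pileups and 0.25 with fold enrichments.

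KO was at least 1.5-fold above the overall median ratio at 56 of the 500 members with 1 peak in each list (11.2%, 8.57 to 14.3%), against 7.56% of all such regions. It was at least 1.5-fold below at 30 members (6.00%, 4.08 to 8.45%), against 7.92%. Shared intronic sites had 11.2% above and 7.70% below, close to the members' shares. The deposited fold enrichments, which divide by the local background of each peak, gave the opposite split: 20 members (4.00%) were at least 1.5-fold above the median ratio of that scale and 39 (7.8%) below, against 3.13% and 6.04% of all such regions and 4.22% and 7.33% of intronic sites. The binomial interval of the 2 pileups lay wholly above the overall median at 11 members (2.20%) and wholly below at 3 (0.60%), against 1.91% and 1.54% of all regions.

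**Figure D5:**
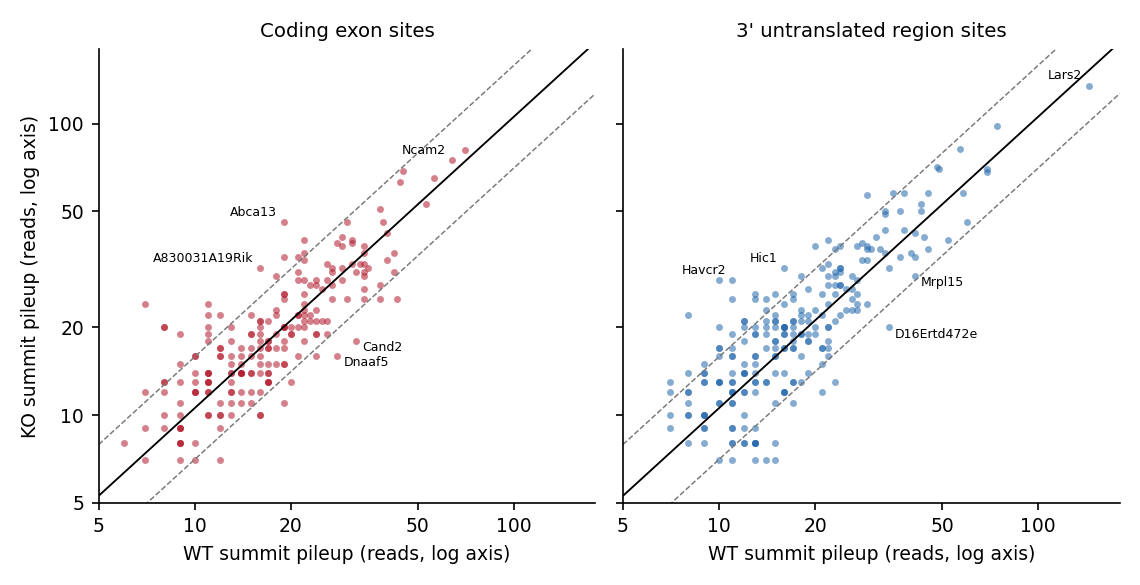
KO against WT summit pileup on log axes for 209 coding and 235 3′ UTR sites with 1 peak in each list; the solid line is the median ratio of all shared regions and the dashed lines are 1.5-fold above and below it. Havcr2 (11 in WT, 29 in KO) and Abca13 (19 and 46) lay furthest above among sites with a summed pileup of at least 40, and Cand2 (32 and 18) lay furthest below.

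Among sites with a summed pileup of at least 40, the highest KO to WT ratios in coding exons were at Abca13, A830031A19Rik, Angpt1, Il4ra and, with the same ratio of 0.82, Zscan10 (21 in WT, 35 in KO) and Bod1l (18 and 30). Abca13, an ATP-binding cassette transporter, had pileups of 19 (WT) and 46 (KO) in exon 30 of 62, and its log2 ratio was 1.36 (0.56 to 2.22). Angpt1, a ligand of the Tek receptor on HSCs, had 19 and 35, a ratio of 0.97 (0.12 to 1.86), with 13.1% of the peak in exon 8 of 9. Il4ra, the alpha chain of the interleukin 4 receptor, had 22 and 40, a ratio of 0.95 (0.16 to 1.77), and its peak lay wholly in the last coding exon of 3951 bp. For Angpt1 and Il4ra the interval held the overall median.

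The lowest ratios in coding exons were at Cand2, Dnaaf5, Rab6b, Prrt3 and Hcrtr2. The pileup at Cand2 was 32 (WT) and 18 (KO) and the log2 ratio -0.74 (-1.66 to 0.13), and its other site, in exon 15 of 15, had 16 and 10. Rab6b, a small GTPase of Golgi traffic, had 43 and 25, a ratio of -0.70 (-1.47 to 0.05). Dnaaf5, a dynein assembly factor, had 28 and 16, a ratio of -0.72 (-1.71 to 0.21). The intervals of Cand2 and Rab6b lay below the overall median of 0.17, and that of Dnaaf5 held it.

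In 3′ UTRs the highest ratios were at Havcr2, Hic1, Myo5a, Rdh13 and Ssbp2. Havcr2 encodes TIM-3, an inhibitory receptor of immune cells, and its pileups of 11 (WT) and 29 (KO) gave a log2 ratio of 1.48 (0.44 to 2.63). Myo5a, a motor of organelle transport, had 29 and 57, a ratio of 1.06 (0.39 to 1.76). Hic1, a transcriptional repressor, had 16 and 32, a ratio of 1.09 (0.18 to 2.05). Ssbp2, a partner of the LDB1 complex, had 22 and 40, a ratio of 0.95 (0.16 to 1.77), an interval that held the overall median.

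AP-1 matches lay near the summits of Havcr2 and Myo5a, and an ETS match at Ssbp2. An AP-1 match also lay 20 bp from the summit of Pla1a, which was among the lowest ratios in 3′ UTRs (52 in WT, 40 in KO). AP-1 was at 11.4% of 3′ UTR sites and 7.58% of all shared peaks. The Havcr2, Myo5a and Ssbp2 matches are shown because these sites had among the highest ratios.
Havcr2, chr11:46480672-46480701 (plus): tcaaggggaacTGACTCAgacaacttctcc
Myo5a, chr9:75222053-75222082 (plus): tctgccattggTGAGTCAgagtaagcttgg
Ssbp2, chr13:91702541-91702570 (plus): gcagttcacacAGGAAGTccatttcccccc

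The lowest ratios in 3′ UTRs were at D16Ertd472e, Mrpl15, Rax, Pla1a and Creb1. D16Ertd472e had pileups of 34 (WT) and 20 (KO) and a log2 ratio of -0.68 (-1.55 to 0.16), the only interval among 3′ UTR sites below the overall median. Mrpl15, a mitochondrial ribosomal protein, had 41 and 30, Pla1a, a phospholipase, 52 and 40, and Creb1, the cAMP response factor, 22 and 18. Rax, a homeobox gene, had 60 and 46, and its WT summit lay in coding sequence. The last 4 had intervals that held the overall median.

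The interval lay above the overall median at 5 further sites of lower summed pileup or ratio, named after their values were seen. They were Gucy2c in a coding exon (7 in WT, 24 in KO) and, in 3′ UTRs, Usp40 (10 and 29), Bspry (8 and 22), Celf2 (11 and 25) and Sbno2 (35 and 58). Gucy2c, the intestinal guanylate cyclase receptor, had the largest ratio of these at 1.86 (0.61 to 3.32). The remaining members above it were Abca13, A830031A19Rik, Myo5a, Rdh13, Havcr2 and Hic1, described or named above.

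The exonic sites touched 6 of 163 autosomal blood and chromatin genes in 5 lists (3.68%), against 2.39% of all protein-coding genes: Angpt1, Meis1 and Tal1 of 38 stem cell regulators and receptors, Itgb3 of 28 megakaryocyte and erythroid genes, Asxl2 and Kdm6b of 39 chromatin regulators, and none of 30 myeloid or of 30 lymphoid genes. These counts are too small to tell the share of any list from that of all genes. Tal1, the basic helix-loop-helix factor needed for HSC formation, had pileups of 44 (WT) and 63 (KO) in exon 3 of 5 and a log2 ratio of 0.60 (0.03 to 1.19), at chr4:115062595-115063972. The 200 bp around that summit had 75% GC and the peak was CpG-island-like. Its interval held the overall median.

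The sites of Meis1, Itgb3 and Asxl2 had pileups below the medians of all members in both lists, and that of Kdm6b was above them. Meis1, a homeobox factor of HSCs, had pileups of 12 (WT) and 14 (KO) in its 3′ UTR with a log2 ratio of 0.31 (-0.91 to 1.55), and Itgb3, the platelet integrin beta chain, had 9 and 10, a ratio of 0.24 (-1.22 to 1.71). Asxl2, a Polycomb-associated factor, had 10 and 14 in an exon of a transcript with no coding part. Kdm6b, a demethylase of histone H3 lysine 27, had 39 and 32 in the 5′ UTR. The log2 ratio at Kdm6b was -0.20 (-0.92 to 0.51). The intervals of all 4 held the overall median.

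The 4 sites in 5′ UTRs, named after their values were seen, were those of Kdm6b, Sf3b5, Ethe1 and Ifit2. Sf3b5, a splicing factor subunit, had 55 in WT and 53 in KO, and Ethe1, a mitochondrial sulfur dioxygenase, had 28 and 40. Ifit2, an interferon-induced gene, had 10 and 21, a ratio of 1.16 (0.01 to 2.41) whose interval held the overall median of 0.17, and its window held a match to the interferon regulatory factor consensus. The 53 sites in exons of transcripts with no coding part, 42 of them retained introns and 11 processed transcripts, had median pileups of 18 in WT and 20 in KO and a median log2 ratio of 0.28 (0.17 to 0.47). Their median GC content was 48.0% against 49.5% at intronic sites, and none was CpG-island-like (0 to 6.72%).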

How the data were processed

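The labels name 4 ATAC-seq samples, 2 WT and 2 KO. The authors trimmed reads with trim_galore, aligned them with Bowtie2 to mm10, used Picard and called peaks with MACS2 without a model; versions and whether both samples were pooled are not given in the sources used here. The deposited lists hold, per peak, the authors' fold enrichment (a ratio), −log10 p and −log10 q; the deposited whole-number score was not used. The deposited summit files repeat these positions and were left out.

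Peaks of the 19 autosomes were classed by the base of the KO summit in GENCODE M21 (GRCm38), coding exon before 3′ UTR, 5′ UTR and exons of transcripts with no coding part; the stop codon counted as 3′ UTR. Fold and −log10 p fix a whole-number summit pileup, which matched within 0.001 for 99.99% of peaks in each list and for 100.00% of 2000 simulated peaks. KO to WT ratios divided pileups by the genome-wide background (1.19 reads in WT, 1.13 in KO, the median of the 1000 lowest local backgrounds), with no pseudocount. Intervals are 95% exact binomial (Clopper-Pearson), or order-statistic for medians, and cover counting error only. Evenly spaced exon bases outside peaks and over 2.5 kb from start sites served as background. Copies were sought with BLAST 2.17.0. Python 3.11.15, SciPy 1.17.1 and pysam 0.24.0 were used.

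Members, gene lists, motifs and alternatives were chosen with earlier results of these data known. Sites named were the 10 of highest KO fold per class, the 5 highest and 5 lowest ratios at a summed pileup of at least 40, all in the 5 gene lists, and up to 8 coding CTCF matches nearest the summit; genes with 3 or more sites would also have been named. Sequences on chromosome 18 and 2 of the marker genes chosen for the check of cell identity are not reported here.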

Additional observations from a re-analysis of the deposited data

How the results depend on the processing

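No paired analysis was possible because WT and KO are 1 peak list each, without replicate columns, and for the same reason no replicate could be left out. Of 82 recomputed values under 11 alternatives, 72 stayed within the interval of the main value, or within 1.5 times the count, 10 moved and 0 reversed. Only the median log2 ratios could be called reversed, by a change of sign. Placing 3′ UTR before coding could not change the number of exonic sites (506) or their share (3.68%), and both are counted among the 72. The exonic share of shared distal sites was 4.49% with a start-site distance over 1 kb and 3.14% over 5 kb. When both peaks had to reach a −log10 q of 10, there were 211 exonic sites, 90 in coding exons and 93 in 3′ UTRs, and the 3′ UTR CTCF share was 2.15%, from fewer sites, against 8.02%. The median log2 ratio of coding sites was 0.08 with raw pileups and 0.27 with deposited fold enrichments, where the median of all shared regions moved alike to 0.08 and 0.26. Median GC was 57.8% in 400 bp at coding sites and 53% in 100 bp at 3′ UTR sites. Shallow pileups, a median of 18 reads at coding sites in KO, limit each site's ratio.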
